A study of Mus musculus with 20 samples.

Results

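The BCL2 family of apoptosis genes was followed in mouse small intestine through 10 members: Bcl2, Bcl2l1, Mcl1, Bcl2l11, Bmf, Bik, Bbc3, Pmaip1, Bax and Bid. They were taken by name, as every probe that the array gives to one of these symbols, which yielded 23 of the 56605 probes and 10 of the 25034 named genes. Transcript levels were measured on 1-colour microarrays, 1 array per mouse, in 6 Cre control, 6 BRAFV600E, 4 Vehicle and 4 MEKi mice of the C57BL6/j strain. The Cre control mice carried a tamoxifen-activated Cre recombinase driven by the Villin promoter, which is active in the gut epithelium (VillinCreER/0). The BRAFV600E mice carried the same Cre and 1 allele from which mutant BRAF is expressed once a stop cassette is cut out (VillinCreER/0/BrafV600E-LSL/+). Per the study's methods these mice were 8 to 12 weeks old, all received 3 daily doses of tamoxifen, and tissue was taken 3 days after the last. No label states a genotype for the Vehicle and MEKi mice. The study's legends place both groups on the mutant allele, and its methods give 2 daily doses of tamoxifen followed by 3 daily injections of the carrier or of the MEK inhibitor PD184352. The first comparison asks what mutant BRAF changes within days and the second what changes when the kinase below it is inhibited. The tissue was bulk intestine, so that recombined epithelium was measured together with immune, muscle and stromal cells, and fewer cells of a type cannot be told apart from less RNA per cell.

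The family sets the threshold for mitochondrial apoptosis. BCL2, BCL-XL (encoded by Bcl2l1) and MCL1 hold the pore former BAX in check, and the BH3-only proteins BIM (Bcl2l11), BMF, BIK, PUMA (Bbc3), NOXA (Pmaip1) and BID bind and neutralise these guardians or activate BAX. ERK signalling, the output of BRAF and MEK, is known to act on several of them, among others by marking BIM protein for degradation and by holding down Bmf transcription in some cell types, while Bbc3, Pmaip1 and Bax are known targets of p53. Arrays read transcripts alone, so changes in BIM or MCL1 protein lie outside these data.

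A member can have several probes, each reading a stretch of 60 bases of the transcript. Several results below depend on which stretch was read, so for 4 members a probe from another stretch than the one standing for the gene is shown, and for Bcl2l11 also the probe that went the opposite way, 5′ to 3′ and with no base singled out by capitals. Other probes of Bcl2, Bcl2l1, Bcl2l11, Bid and Mcl1 are given by their values alone. On build mm9 these are the Bmf probe at chr2:118358312-118358371 (minus strand, base 754 of its transcript), the Bcl2l11 probe at chr2:127972893-127983988 (plus strand, base 682), the upstream Bcl2l11 probe at chr2:127957112-127957171 (plus strand, base 2204 of another transcript model), the Bax probe at chr7:52721469-52721624 (minus strand, base 174) and the Bcl2l1 probe at chr2:152655185-152655244 (minus strand, base 720). The first Bcl2l11 probe and the Bax probe span 11096 and 156 genomic bases for 60 bases of probe, so both cross an exon junction.
Bmf: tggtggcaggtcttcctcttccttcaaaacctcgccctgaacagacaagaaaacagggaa
Bcl2l11 junction: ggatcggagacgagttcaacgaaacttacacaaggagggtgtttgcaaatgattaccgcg
Bcl2l11 upstream: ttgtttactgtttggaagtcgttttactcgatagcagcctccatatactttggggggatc
Bax: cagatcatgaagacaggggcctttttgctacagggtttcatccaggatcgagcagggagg
Bcl2l1: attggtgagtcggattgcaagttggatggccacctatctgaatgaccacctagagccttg

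Levels are given as the log2 of the processed signal relative to the 75th percentile of the same array, which is 0 on this scale, and differences as log2 of the second group minus the first. Between 60.8% and 76.8% of spots were well above background per array. The 9 markers of intestinal epithelium averaged between 5.66 and 6.04 in Cre control, 5.86 and 6.24 in BRAFV600E, 6.12 and 6.41 in Vehicle and 6.03 and 6.34 in MEKi. In BRAFV600E 4 of 6 arrays lay above the Cre control range and 2 of the 9 markers, Krt18 (0.87, SE 0.14) and Cdh1 (0.61, SE 0.14), rose. The markers did not move together: 5 had a positive and 4 a negative difference, the lowest being Fabp2 at −0.67 (SE 0.21). As a check of the treatment, 9 of 11 genes known to follow ERK signalling rose in BRAFV600E (median difference 1.00), against 6.19% of all genes. With MEKi 5 of 11 fell (median −1.50), against 0.884% of all genes. Etv4, a transcription factor of this pathway, led both, at 2.50 (SE 0.27) and −2.95 (SE 0.23). The list was chosen with earlier results of these data known, so it is no independent check. The spike-in controls of Cre control replicates 2, 3 and 5 had a slope out of the range that the scanner software accepts, between 0.759 and 0.843, and those of BRAFV600E replicates 3 to 6 had a slope of 0. Those 4 arrays lay on a slide of their own, while the other BRAFV600E arrays shared a slide with all Cre control arrays. Vehicle replicate 2 carried exocrine pancreas transcripts at a mean level of 7.65, against −3.22 or lower on the other 7 arrays of its experiment. The Y-linked genes Ddx3y, Eif2s3y and Uty were well above background on 3 of 6 Cre control, 4 of 6 BRAFV600E, 2 of 4 Vehicle and 4 of 4 MEKi arrays, so that the sexes were mixed unevenly, while the probe of the Y-linked gene Kdm5d was well above background on all arrays.

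In BRAFV600E tissue 1 of the 10 members changed, Bmf, which fell. Of all 19037 genes tested in this comparison 12.5% were called at an adjusted p under 0.05 (limma with Benjamini-Hochberg adjustment), 6.19% as higher and 6.27% as lower, so that 1 of 10 is near the background share. Without scaling between arrays the median of all genes was 0.79 and 98.1% of the called genes were higher, against 49.7% with it, and Bmf then stood at 0.11, below that median but above 0. The median difference over the members was 0.07 (7 positive, 3 negative), against −0.02 over all genes tested. At an unadjusted p under 0.05 the members numbered 3, with Bid higher and Bcl2 and Bmf lower, which is the share found over all genes (30.1%). For 0 of the 10 members did the 6 BRAFV600E arrays lie apart from the 6 Cre control arrays, against 7.4% of the genes with a value on every array.

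**Figure D1:**
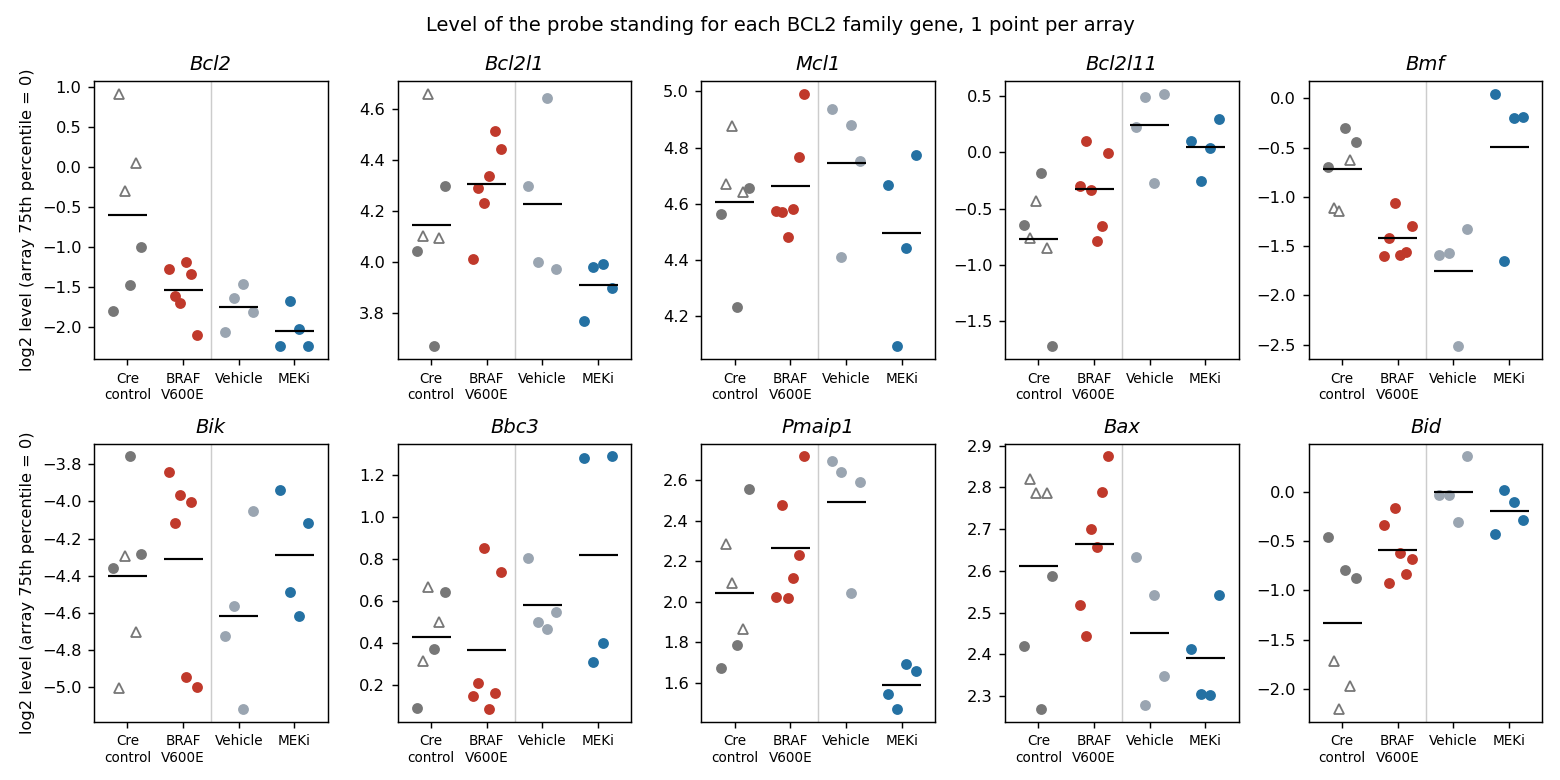
Level of the probe standing for each BCL2 family gene, 1 point per array in the 4 groups, with the y axis in log2 relative to the array's 75th percentile (each panel has its own range) and black bars at the group means. White triangles are Cre control replicates 2, 3 and 5, whose spike-in slope was out of range. BRAFV600E replicates 3 to 6, whose slope was 0 and also out of range, are not marked. Bmf lay lower in BRAFV600E, Pmaip1 lay lower on all 4 MEKi arrays, and the triangles are the 3 highest Cre control arrays for Bcl2 and the 3 lowest for Bid.

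BMF is a BH3-only protein that sits on the cytoskeleton in healthy cells and binds BCL2-type guardians when released. Its level ranged from −1.14 to −0.30 over the Cre control arrays (median −0.66) and from −1.60 to −1.06 over the BRAFV600E arrays (median −1.49). Of the 6 BRAFV600E arrays 5 lay below every Cre control array, and replicate 3, at −1.06, lay above Cre control replicates 2 and 3. The difference was −0.70 (SE 0.17, 95% interval −1.07 to −0.33, n = 6 and 6), or 0.616 of the control level, with an adjusted p of 0.0213 in limma. The probe was well above background on all 12 arrays.

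The Bmf call held in all 12 fits that left out 1 array, with adjusted p between 0.0192 and 0.0476 in limma. Without Cre control replicates 2, 3 and 5 the difference was −0.94 (adjusted p = 0.0286 in limma). That exclusion was chosen after seeing the data and kept BRAFV600E replicates 3 to 6, whose spike-in slope was 0. With slide as a block the Bmf difference was −0.79 (SE 0.25, adjusted p = 0.0714 in limma). Within the slide that holds both groups, 6 against 2 arrays, it was −0.79 (SE 0.26, adjusted p = 0.136 in limma), so the difference was as large there but the call was lost. Markers of several cell types moved in the same comparison. Of the 6 Paneth cell markers on the array 5 fell, and the mean level of the list went from between 6.29 and 7.24 to between 3.12 and 5.93. Of 7 markers of enteric neurons and glia 3 fell, and their mean went from between −1.98 and −1.53 to between −2.75 and −2.14, below the Cre control range on all 6 arrays. Of 8 markers of B and plasma cells 1 fell, with 5 of 6 arrays below the Cre control range, and 2 of 9 T cell and 1 of 8 macrophage and granulocyte markers fell as well. The means of these last lists lay below the Cre control range on 2 and 3 of 6 arrays. Over all genes tested 6.27% were called as lower and 6.19% as higher. Of 7 smooth muscle markers 2 rose, with 4 of 6 arrays above the Cre control range, and 0 of 7 fibroblast and 0 of 6 endothelial markers were called by limma, 0 also at an unadjusted p under 0.05. The part of these cell types in the Bmf difference was not tested.

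The other Bmf probe, whose sequence is shown above, did not pass the test. It ranged from −3.52 to −2.75 in Cre control (median −3.03) and from −3.53 to −3.15 in BRAFV600E (median −3.27), with a difference of −0.17 (SE 0.16) and an adjusted p over all probes of 0.518 in limma. It lies at base 754 of the transcript and the called probe at base 4570 (chr2:118354496-118354555, minus strand). In the fit over all probes the called one had an adjusted p of 0.0285 in limma, and it was the only 1 of the 21 member probes tested to pass, against 9.33% of all 38493 probes tested. At an unadjusted p under 0.05 the member probes numbered 5 of 21, against 27.4% of all probes.

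With the MEK inhibitor 1 of the 10 members changed, Pmaip1, which fell. Of the 19230 genes tested 1.98% were called, 1.09% as higher and 0.884% as lower. The median difference of the members was −0.20 (3 positive, 7 negative), against 0.04 over all genes tested. At an unadjusted p under 0.05 the members numbered 2, Bmf and Pmaip1, against 16.4% of all genes. On the probe standing for each gene, Pmaip1 was also the only member whose MEKi and Vehicle arrays did not overlap, against 12.2% of the genes with a value on every array. The upstream Bcl2l11 probe, given below, did not overlap either.

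Pmaip1 encodes NOXA, a BH3-only protein that binds MCL1. On the Vehicle arrays it stood at 2.69, 2.64, 2.05 and 2.59 and on the MEKi arrays at 1.54, 1.47, 1.69 and 1.66. Every MEKi array lay below every Vehicle array, and Vehicle replicate 3 was the lowest of its group. The difference was −0.90 (SE 0.17, 95% interval −1.28 to −0.52, n = 4 and 4), or 0.535 of the Vehicle level, with an adjusted p of 0.0390 in limma. Pmaip1 has 1 probe, and in the fit over all probes its adjusted p was 0.0622 in limma, so that 0 of 21 member probes tested were called, against 0.928% of 39245 probes. At an unadjusted p under 0.05 they numbered 2 of 21, against 13.2% of all probes.

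The direction of Pmaip1 did not depend on a single array, but the call did. Leaving out 1 array moved the difference between −1.05 and −0.83 and the adjusted p between 0.0237 and 0.128 in limma, and the call was lost in 7 of 8 fits. The exception was the fit without Vehicle replicate 3. Without Vehicle replicate 2, the array with pancreas transcripts, the difference was −0.85 (adjusted p = 0.0714 in limma). When the level of the Y-linked genes entered the fit it was −0.78 (adjusted p = 0.179 in limma). MEKi and Vehicle arrays filled separate rows of 1 slide, and an effect of the row cannot be told apart from that of the inhibitor. In this comparison limma called 0 markers of every cell type list. On the higher side 5 of 9 T cell, 1 of 6 Paneth cell and 1 of 7 neuron and glia markers had an unadjusted p under 0.05. On the lower side there were 1 of 9 epithelial and 1 of 8 macrophage and granulocyte markers. Over all genes 16.4% had such a p, and the part of these cell types in the Pmaip1 difference was not tested.

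The counterpart of Pmaip1 in the first experiment did not pass the test. It ranged from 1.67 to 2.56 in Cre control (median 1.98) and from 2.02 to 2.72 in BRAFV600E (median 2.18), and the groups overlapped. The difference was 0.22 (SE 0.18, adjusted p = 0.445 in limma), and its 95% interval, −0.17 to 0.61, reaches both a small loss and a gain of 1.53-fold.

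Bmf had the largest positive difference among the members under MEKi, without passing the test. The Vehicle arrays stood at −1.59, −1.58, −2.52 and −1.33 and the MEKi arrays at 0.05, −1.65, −0.20 and −0.19. MEKi replicates 1, 3 and 4 lay above every Vehicle array, whereas replicate 2 lay within the Vehicle range. The difference was 1.26 (SE 0.41, 95% interval 0.31 to 2.20), or 2.39-fold, with an unadjusted p of 0.0156 and an adjusted p of 0.183 in limma. Without MEKi replicate 2 the difference was 1.64 and the adjusted p 0.0419 in limma, so this array decides the call. The Bmf probe at base 754 gave −0.13 (SE 0.18, adjusted p over probes 0.825 in limma), the opposite sign, with 4 Vehicle arrays between −2.93 and −2.31 and 4 MEKi arrays between −2.96 and −2.58. Neither a rise of Bmf nor its absence was therefore shown in this comparison.

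**Figure D2:**
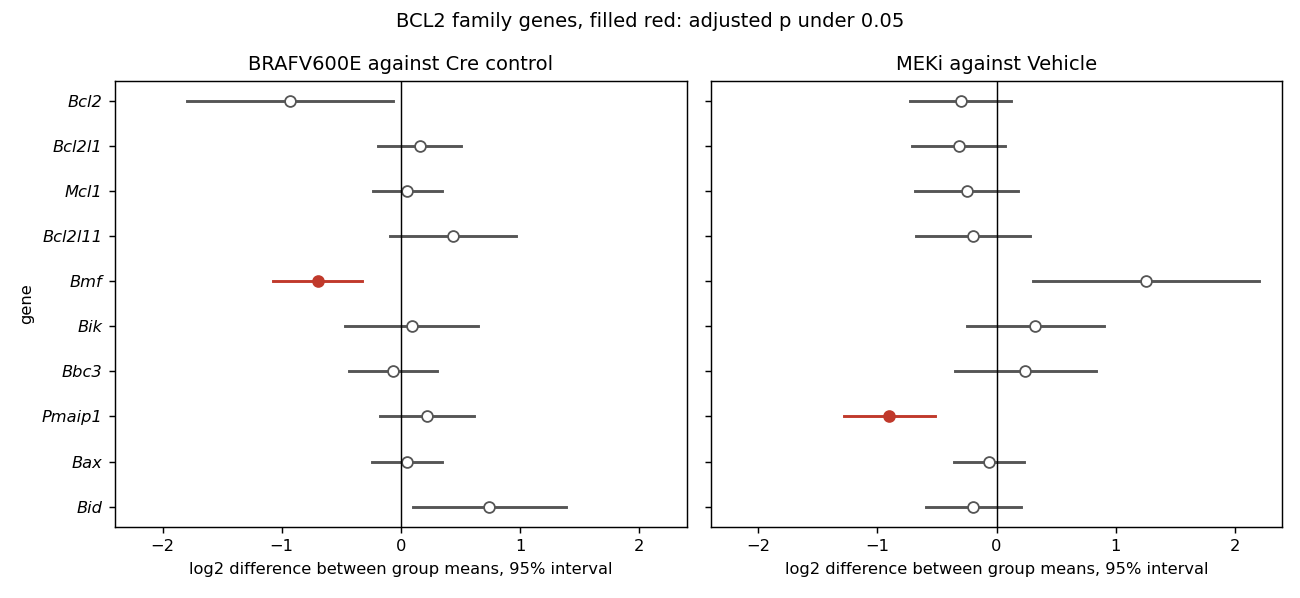
Log2 difference between group means for the 10 BCL2 family genes, with 95% intervals from limma, BRAFV600E minus Cre control on the left and MEKi minus Vehicle on the right. Filled red points passed an adjusted p of 0.05. These were Bmf on the left, at −0.70, and Pmaip1 on the right, at −0.90, and the interval of Bmf lay above 0 on the right without passing.

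None of the anti-apoptotic members passed the test in either comparison. Mcl1, whose short-lived protein is needed for survival of intestinal epithelium, ranged from 4.23 to 4.88 in Cre control (median 4.65) and from 4.48 to 4.99 in BRAFV600E (median 4.58). Its difference was 0.06 (SE 0.14) and the 95% interval, −0.24 to 0.35, is equivalent to between 0.848 and 1.27 of the control level. Under MEKi Mcl1 stood at 4.67, 4.09, 4.44 and 4.78 against 4.94, 4.41, 4.88 and 4.75 under Vehicle. That difference was −0.25 (SE 0.19, 95% interval −0.69 to 0.18, adjusted p = 0.584 in limma). The other Mcl1 probe gave 0.05 and −0.25 in the same order, and in BRAFV600E it rested on 5 arrays because 1 spot was left out as an outlier.

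Bcl2l1, the gene for BCL-XL, ranged from 3.67 to 4.66 in Cre control (median 4.10) and from 4.01 to 4.51 in BRAFV600E (median 4.31). The difference was 0.16 (SE 0.16, adjusted p = 0.545 in limma) and was 0.00 with slide as a block. Under MEKi it stood at 3.77, 3.98, 3.99 and 3.90 against 4.30, 4.002, 4.65 and 3.97 under Vehicle. All 4 MEKi arrays lay below Vehicle replicates 1, 2 and 3 and replicate 4 lay among them, with a difference of −0.32 (SE 0.17, adjusted p = 0.414 in limma). The 5 Bcl2l1 probes did not move together in BRAFV600E: 2 were higher and 3 lower. The probe shown above gave 0.44 (SE 0.23, adjusted p over probes 0.244 in limma), and the others beside the brightest gave −0.27 (SE 0.21), −0.23 (SE 0.28) and −0.08 (SE 0.29). Under MEKi the probe shown above gave −0.58 (SE 0.45), and the others −0.12 (SE 0.33), −0.37 (SE 0.55, too dim to be tested) and −0.25 (SE 0.19).

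Bcl2 itself was the most variable member in Cre control. Its brightest probe ranged from −1.80 to 0.91 there (median −0.65) and from −2.10 to −1.18 in BRAFV600E (median −1.47). The difference was −0.93 (SE 0.40, 95% interval −1.80 to −0.07, unadjusted p = 0.0363, adjusted p = 0.137 in limma). The highest Cre control values, 0.91, 0.05 and −0.30, belonged to replicates 2, 5 and 3, the Cre control arrays with a spike-in slope out of range. Without these 3 arrays the difference was −0.11 (SE 0.25, adjusted p = 0.846 in limma). They were left out after seeing the data, while BRAFV600E replicates 3 to 6, with a slope of 0, stayed in. The other Bcl2 probes, designed on other transcript models, gave −0.36 (SE 0.32) and −0.21 (SE 0.22), and on both of them replicates 2, 3 and 5 were the 3 lowest Cre control arrays rather than the highest. Under MEKi the brightest probe gave −0.30 (SE 0.19) and the others −0.47 (SE 0.44) and −0.34 (SE 0.17), with the brightest at −2.24, −1.67, −2.02 and −2.24 against −2.06, −1.64, −1.46 and −1.81 (adjusted p = 0.489 in limma).

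Of the BH3-only genes, Bcl2l11, the gene for BIM, read differently along its length. The probe standing for it (chr2:127988051-127988110) ranged from −1.72 to −0.19 in Cre control (median −0.71) and from −0.79 to 0.10 in BRAFV600E (median −0.32), a difference of 0.44 (SE 0.25, adjusted p = 0.251 in limma). The upstream probe shown above went the other way, from between −3.61 and −2.46 (median −2.67) to between −3.53 and −3.18 (median −3.47). There the difference was −0.63 (SE 0.19, adjusted p over probes 0.0532 in limma), and Cre control replicate 1, at −3.61, was lower than every BRAFV600E array while the other Cre control arrays were higher than all 6. Under MEKi the signs of these probes were exchanged: −0.20 (SE 0.21, adjusted p = 0.714 in limma) at the first and 0.26 (SE 0.12, adjusted p over probes 0.422 in limma) at the second, where the 4 MEKi arrays, from −3.06 to −2.92, lay above the 4 Vehicle arrays, from −3.38 to −3.18.

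The 2 Bcl2l11 probes that cross an exon junction were dim. The one shown above was well above background on 1 of 6 Cre control and 4 of 6 BRAFV600E arrays and was not tested there, with levels from −6.47 to −4.79 against −5.17 to −4.16. Under MEKi it gave −0.28 (SE 0.22). The other was well above background on 1 of the 12 arrays in the first experiment, where it was not tested (−1.04, SE 0.35), and gave −0.11 (SE 0.58) under MEKi. BIM isoforms could not be compared at this signal.

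Bbc3, the gene for PUMA, and Bik, a BH3-only protein of the endoplasmic reticulum, did not pass in either comparison. Bbc3 ranged from 0.09 to 0.66 in Cre control (median 0.44) and from 0.08 to 0.85 in BRAFV600E (median 0.18), and the difference was −0.07 (SE 0.17, adjusted p = 0.838 in limma). Under MEKi 2 arrays stood high, at 1.28 and 1.29, and the others at 0.31 and 0.40, below all Vehicle arrays, which lay between 0.47 and 0.81 (difference 0.24, SE 0.26). Bik was near the lower end of detection, with levels from −5.00 to −3.76 in the first experiment and from −5.12 to −3.94 in the second, and differences of 0.09 (SE 0.26) and 0.33 (SE 0.25).

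Bid, whose product links death receptors to mitochondria once cleaved by caspase 8, had the largest positive difference of the members in BRAFV600E but did not pass. It ranged from −2.21 to −0.45 in Cre control (median −1.30) and from −0.92 to −0.16 in BRAFV600E (median −0.65). The difference was 0.74 (SE 0.30, 95% interval 0.10 to 1.38, unadjusted p = 0.0264, adjusted p = 0.113 in limma), or 1.67-fold. Cre control replicates 2, 3 and 5 were the 3 lowest arrays, at −1.72, −2.21 and −1.97. Without these Cre control arrays, an exclusion chosen after seeing the data that kept BRAFV600E replicates 3 to 6, the difference was 0.11 (SE 0.20, adjusted p = 0.804 in limma). Under MEKi it was −0.20 (SE 0.17, adjusted p = 0.651 in limma). The other Bid probe, designed on another transcript model, was dim, well above background on 3 of 6 Cre control and 4 of 6 BRAFV600E arrays. It ranged from −6.75 to −3.56 in Cre control (median −5.76) and from −6.37 to −3.45 in BRAFV600E (median −3.88), a difference of 1.15 (SE 0.60, adjusted p over probes 0.234 in limma), and Cre control replicate 5 was there the highest of its group. Under MEKi it was too dim to be tested (−0.92, SE 0.56).

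Bax, the pore former, was level on its brighter probe, with a range of 2.27 to 2.82 in Cre control (median 2.69) and of 2.44 to 2.87 in BRAFV600E (median 2.68). The difference was 0.05 (SE 0.13, 95% interval −0.24 to 0.34), or between 0.847 and 1.27 of the control level. The junction probe shown above ranged from 0.12 to 0.61 in Cre control (median 0.37) and from 0.59 to 1.11 in BRAFV600E (median 0.68), with 4 of 6 BRAFV600E arrays above every Cre control array. Its difference was 0.42 (SE 0.15), with an unadjusted p of 0.0132 and an adjusted p over probes of 0.0871 in limma. Under MEKi the probes gave −0.06 (SE 0.13) and −0.24 (SE 0.14), and neither passed.

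**Figure D3:**
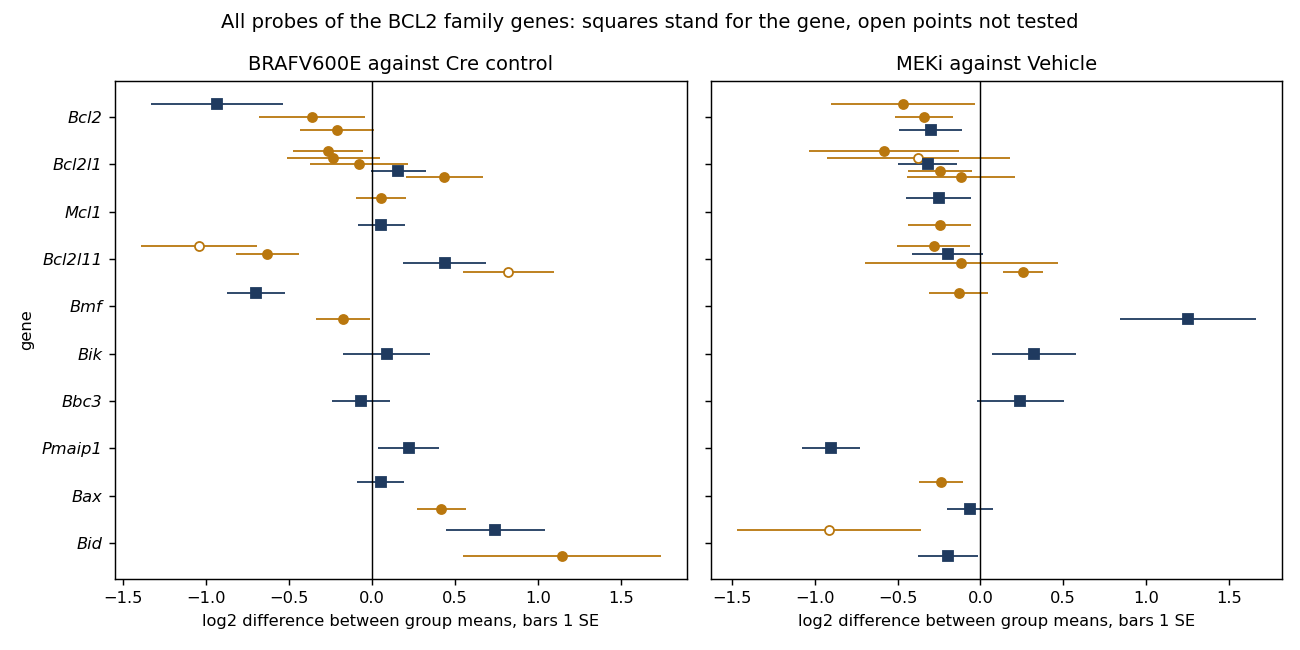
Log2 difference between group means for all 23 probes of the BCL2 family genes, bars of 1 SE, BRAFV600E minus Cre control on the left and MEKi minus Vehicle on the right. Squares are the probes standing for their gene and open points were too dim to be tested. The probes of Bcl2l1 and Bcl2l11 lie on both sides of 0 on the left, and those of Bmf on the right, at 1.26 and −0.13.

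The 2 experiments used different mice and slides and share no array. For 8 of the 10 members the differences had opposite signs in the 2 experiments, as had 70.2% of the 18574 genes tested in both. Bcl2 was negative in both and Bik positive in both. No member was called in both.

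Among 10 other family genes that promote apoptosis or carry a BH3 motif, 2 rose in BRAFV600E and 0 fell (median difference 0.28). Over all genes tested 6.19% were called as higher and 6.27% as lower. Bnip3l, a mitophagy receptor, rose by 0.72 (SE 0.15, adjusted p = 0.0119 in limma), and Bcl2l13, another mitophagy receptor, by 0.47 (SE 0.12, adjusted p = 0.0227 in limma). For both the 6 BRAFV600E arrays lay above the 6 Cre control arrays. Of the genes with a value on every array 7.4% had groups that did not overlap. Under MEKi 0 of 9 tested were called by limma, with 2 at an unadjusted p under 0.05, against 16.4% of all genes. Bak1, the partner of BAX, had differences of 0.10 (SE 0.20) and 0.10 (SE 0.12). Of 5 other anti-apoptotic genes, Bcl2l2 and Bcl2a1d could be tested and were not called in either comparison by limma, 0 of 2 also at an unadjusted p under 0.05.

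Of 11 death receptor genes 4 changed in BRAFV600E, against 12.5% of all genes tested. At an unadjusted p under 0.05 there were 3 higher and 2 lower, against 30.1% of all genes. Tnfsf10, the gene for the death ligand TRAIL, fell by 1.49 on the log2 scale (SE 0.36, adjusted p = 0.0196 in limma) and Fasl, the FAS ligand, by 0.81 (SE 0.23, adjusted p = 0.0398 in limma). Casp8, the caspase that cleaves BID, rose by 0.80 (SE 0.21, adjusted p = 0.0282 in limma) and Tradd, an adaptor of the TNF receptor, by 0.68 (SE 0.15, adjusted p = 0.0132 in limma). Under MEKi Tnfsf10 alone of this list was called: it rose by 2.06 (SE 0.22, adjusted p = 0.00677 in limma). At an unadjusted p under 0.05 there were 3 higher and 3 lower genes of the 11, against 16.4% of all genes. Fasl stood at 0.88 (SE 0.18, adjusted p = 0.0543 in limma), Casp8 at −0.69 (SE 0.19, 0.133) and Tradd at −0.54 (SE 0.13, 0.0889). Each had the sign opposite to BRAFV600E. For each the MEKi and Vehicle arrays did not overlap, against 12.2% of the genes with a value on every array. The T cell markers, cells that can express both ligands, had a median difference of −0.74 in BRAFV600E, with 2 of 9 called lower, and of 0.48 under MEKi, with 0 of 9 called by limma but 5 of 9 at an unadjusted p under 0.05, all of them higher. Their part in the ligand values was not tested.

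Downstream of mitochondria, 0 of 11 apoptosome, caspase and nuclease genes and 0 of 7 inhibitors of apoptosis and their antagonists were called by limma in either comparison. At an unadjusted p under 0.05 they numbered 1 of 11 and 2 of 7 in BRAFV600E, against 30.1% of all genes, and 5 of 11 and 2 of 7 under MEKi, against 16.4%. The median differences of the apoptosome list were 0.18 and 0.13, with 10 and 8 of the 11 genes positive. Its mean level lay between 1.27 and 1.82 in Cre control and between 1.66 and 2.04 in BRAFV600E, with 5 of 6 arrays above the Cre control range. Under MEKi 2 of 4 arrays lay above the Vehicle range.

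Of 17 p53 target genes tested outside the family, Perp, a gene of cell junctions, rose by 0.57 (SE 0.11, adjusted p = 0.00822 in limma) and Sesn1, a stress sensor, fell by 0.84 (SE 0.24, adjusted p = 0.0420 in limma) in BRAFV600E, and 0 of 17 were called under MEKi, with 2 at an unadjusted p under 0.05. The share called over all genes tested was 12.5% in BRAFV600E and 1.98% under MEKi. At an unadjusted p under 0.05 the share was 30.1% and 16.4%. Cdkn1a and Mdm2, standard readouts of p53, stood at 0.19 (SE 0.20) and 0.08 (SE 0.11) in BRAFV600E. Under MEKi they stood at −0.44 (SE 0.20) and −0.05 (SE 0.13), and Perp at −0.51 (SE 0.11, adjusted p = 0.0662 in limma). Of the 17 targets 7 were positive and 10 negative under MEKi, with a median of −0.04. Of 9 transcription factors known to act on BH3-only genes Myc rose in BRAFV600E, by 0.94 (SE 0.28, adjusted p = 0.0488 in limma), while Trp53 and Foxo3, an activator of Bcl2l11, gave −0.02 (SE 0.17) and 0.03 (SE 0.12). Under MEKi Myc stood at −1.005 (SE 0.27, adjusted p = 0.112 in limma) and 0 of the 9 were called, with 1 at an unadjusted p under 0.05. Of 4 ubiquitin enzymes of MCL1 0 were called in either comparison by limma. At an unadjusted p under 0.05 there were 4 (2 higher, 2 lower) in BRAFV600E and 2 (1 higher, 1 lower) under MEKi.

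**Figure D4:**
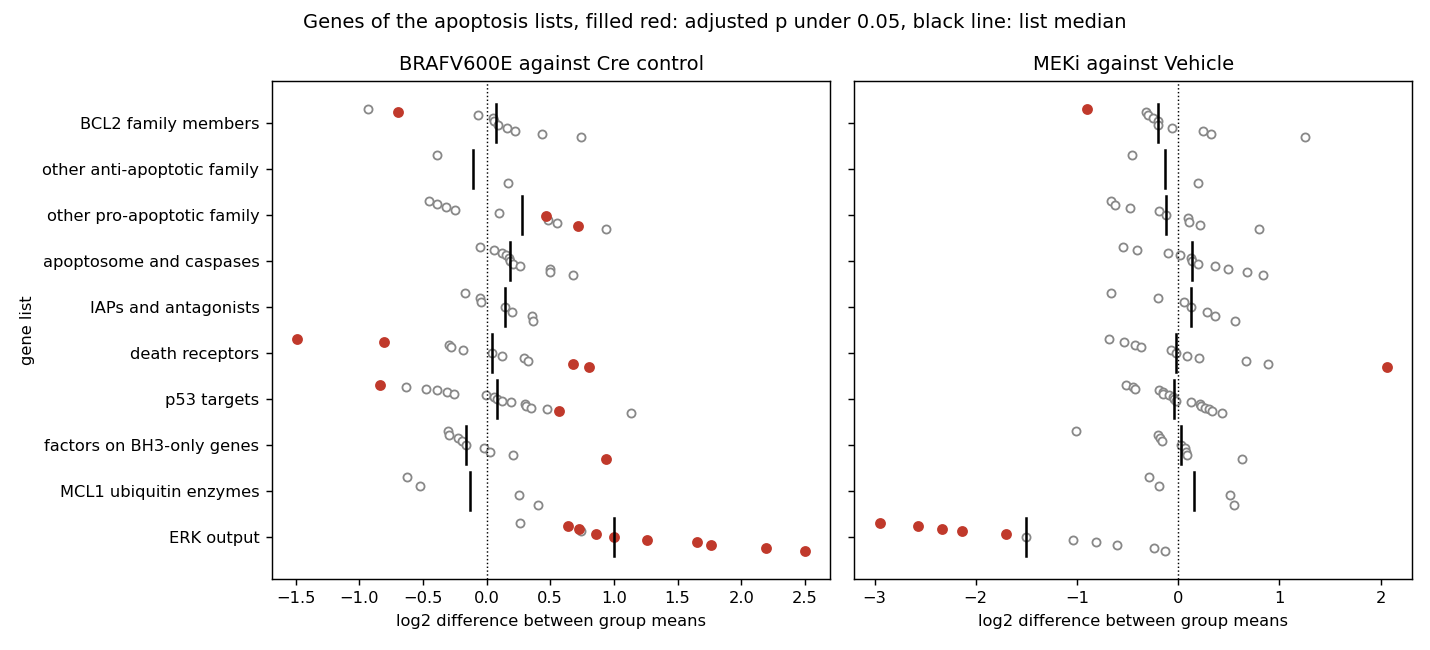
Log2 difference between group means for each tested gene of 10 apoptosis and signalling lists, BRAFV600E minus Cre control on the left and MEKi minus Vehicle on the right, with black lines at the list medians. Filled red points passed an adjusted p of 0.05. The ERK output genes, with medians of 1.00 and −1.50, moved farther than the BCL2 family members, with medians of 0.07 and −0.20.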

How the data were processed

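RNA of 20 mice was hybridised to Agilent SurePrint G3 Mouse arrays. Per the file headers, the authors extracted each array with Agilent Feature Extraction 10.5.1.1, which wrote a background-subtracted processed intensity per spot on a linear scale, not normalized between arrays. The deposited files also mark each spot, with a value of 0 or 1, as saturated, as an outlier and as well above background or not. The series matrix deposited by the authors held the same intensity. Control and outlier spots were left out (59305 other spots per array, 0 saturated), the signal was put on the log2 scale, the 75th percentile of the array was subtracted and copies of a probe were averaged. Probes were named through RefSeq genes of GRCm38.p6 (34023 by accession, 9993 by symbol, 318 by synonym), and 12271 had no symbol. The brightest probe stood for a gene.

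A gene was tested when well above background on at least 6 of 12 or 4 of 8 arrays. Each comparison was fitted alone with limma 3.58.1 (R 4.3.3, lmFit and eBayes, two-sided) with no covariate, since none is named in the study's methods, and genes were called where the p adjusted by Benjamini-Hochberg was under 0.05. The fit was tested on simulated data, with 100 genes changed by 1 and 100 by 2 on the log2 scale. Of the changes by 1 it recovered 54% in the design of the first comparison and 43% in that of the second. Of the changes by 2 it recovered 86% and 80%. The number of arrays limits the precision. Replicate correlations lay between 0.947 and 0.992.

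The members and the gene lists were chosen with earlier results of these data known. All 10 members are named, with a value for each of their probes. From the other lists every called gene is named, or the 4 with the largest change, and some uncalled genes whose role bears on a member; of the ERK and cell marker lists, used as checks, mainly counts are given. Groups come from the source labels. The treatment text of the labels, a statin given to female mice, is the same for all arrays, matches no group and was not used. Beyond the junctions stated, the exon, intron or UTR that holds a probe was not analysed here. Alternatives were other background corrections, scalings, filters, probe choices, covariates and array weights, all arrays in 1 fit, slide as a block and leaving out arrays.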

Additional observations from a re-analysis of the deposited data

Results flagged for a closer look

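In 40 sets of values, the 10 members in the 4 groups, 2 held 1 array set apart from the rest of its group, where chance alone gives about 1 in 20. Bmf in MEKi replicate 2 stood at −1.65 against −0.20 for the nearest array and 0.05 at the other end of the group, a gap of 0.857 of the whole range. Pmaip1 in Vehicle replicate 3 stood at 2.05 against 2.59 for the nearest array and 2.69 at the other end, a gap of 0.841 of the whole range.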

How the results depend on the processing

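No paired analysis was possible because the replicate numbers follow accession order and link no mice between groups. In BRAFV600E, where 2372 genes and 1 member were called, the alternatives gave 4627 genes (34.3% higher, against 49.7%) and 2 members with normexp background correction, 9343 and 8 without scaling between arrays, 3747 and 2 with array weights, 1534 and 0 with slide as a block and 734 and 0 within the slide that holds both groups. Without Cre control replicates 2, 3 and 5, an alternative chosen after seeing the data, 426 genes were called. The mean of all probes of a gene and the fit of all 20 arrays called 0 members, with Bmf at an adjusted p of 0.0547 and 0.0671 in limma. Member probes called, 1 of 21 tested, numbered 4 with normexp, 10 without scaling, 0 with the slide block and 0 within the slide. Leaving out 1 array gave 1441 (without Cre control replicate 3) to 2863 genes, 1 to 2 members and 0 to 2 member probes. Bid passed with normexp (adjusted p = 0.0474 in limma), array weights (0.0279), without scaling (0.0104) and without Cre control replicate 1 (0.0473).

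With MEKi, where 380 genes and 1 member were called, there were 74 genes and 0 members without scaling, 234 and 0 without the filter on dim probes, 53 and 0 with the Y-linked covariate and 1230 and 2 with array weights. The mean of all probes gave 239 genes, and all 20 arrays in 1 fit gave 2 members, Bmf and Pmaip1. Normexp called 1 member probe. Leaving out 1 array gave 76 to 376 genes, 0 to 1 members and 0 to 1 member probes.

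Several log2 differences changed sign in BRAFV600E, Bmf being the one called member among them. Normexp gave −0.34 for Bik and −0.014 for Bax, quantile normalization −0.011 for Mcl1 and −0.0026 for Bax, array weights −0.012 for Mcl1, the mean of probes −0.10 for Bcl2l11, and the slide block and the single slide alike −0.034 for Mcl1 and −0.13 for Bax. Without scaling Bmf was at 0.11 and Bbc3 at 0.74, and without Cre control replicates 2, 3 and 5 Bik was at −0.18. Leaving out 1 array moved Mcl1 between −0.020 and 0.11, Bik between −0.031 and 0.23 and Bax between −0.016 and 0.10. With MEKi Bcl2l11 turned to 0.084 with the Y-linked covariate, and Bax moved between −0.12 and 0.00036 when 1 array was left out. The causes were not tested. Signal near background limits Bik, the junction probes of Bcl2l11 and the dimmer probes of Bid and Bcl2l1.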
